A study of Mus musculus with 12 samples.

Results

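The genes described are 6 transcription factors that drive epithelial-to-mesenchymal transition (Twist1, Twist2, Snai1, Snai2, Zeb1 and Zeb2) and 4 adhesion genes whose levels shift in that transition (Cdh1, Cdh2, Epcam and Cldn1). They are 10 of 19937 genes with a probe set of their own on the arrays, and each was represented by 1 probe set. The genes were chosen by symbol, and where several existed the brightest on average would have been taken. Twist2 was put forward with its difference between host genotypes already known, so that this difference is given as a description only and supports nothing.

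The tumours grew from mouse prostate carcinoma cells of the TRAMP-C2Re3 line, of which 50000 were placed in the prostate and left for 60 days. The hosts were 6 p62 KO mice and 6 WT mice, all of C57BL6 background, with 1 tumour and 1 array each. p62, encoded by Sqstm1, is an autophagy receptor and signalling adaptor. Every host cell of a KO mouse carries the knockout, while the injected carcinoma cells have their own p62 in both groups, and the labels name neither the deleted exons nor the age of the mice. Sqstm1 itself averaged 8.73 ± 0.39 in tumours of p62 KO hosts and 8.89 ± 0.23 in tumours of WT hosts (log2 intensity, SD, n = 6 each), a level that does not check the labels because carcinoma RNA is included. The whole tumour was measured, so that fewer cells of a type and less RNA per cell cannot be told apart.

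In epithelial-to-mesenchymal transition, cells give up the junctions of an epithelial sheet and take on a motile, fibroblast-like state. Twist proteins are basic helix-loop-helix factors that bind E-box sequences as dimers with E proteins, and Snail and Zeb proteins are zinc finger repressors that bind E-boxes of the Cdh1 promoter. Cdh1 encodes E-cadherin, the adhesion molecule of epithelial junctions, and Cdh2 encodes N-cadherin, which mesenchymal cells carry in its place. Epcam is an epithelial adhesion molecule, and Cldn1 is a claudin of tight junctions. Twist factors, Snai2, Zeb1 and Zeb2 are also made by normal fibroblasts, and Zeb2 by macrophages, so that a whole tumour holds several sources of these RNAs.

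The promoters of 6 of the 10 genes were taken from the RefSeq table of build GRCm38.p6. A whole chromosome was left out of this selection, so that the table is not shown to lack genes that lie on it. Any of the 10 genes on another chromosome and without a window here had none in the table. Each promoter window spans 300 bases, from 250 before to 50 after the start site. Those of Twist2, Snai1, Epcam and Cldn1 are shown because Twist2 stood apart between hosts, Snai1 and Epcam varied together, and Cldn1 varied with Twist2. They lie at chr1:91801211-91801510 (plus strand), chr2:167537945-167538244 (plus strand), chr17:87635729-87636028 (plus strand) and chr16:26371790-26372089 (minus strand). Each is written 5′ to 3′ on the strand of the gene, with every E-box core CANNTG in capitals.

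Twist2: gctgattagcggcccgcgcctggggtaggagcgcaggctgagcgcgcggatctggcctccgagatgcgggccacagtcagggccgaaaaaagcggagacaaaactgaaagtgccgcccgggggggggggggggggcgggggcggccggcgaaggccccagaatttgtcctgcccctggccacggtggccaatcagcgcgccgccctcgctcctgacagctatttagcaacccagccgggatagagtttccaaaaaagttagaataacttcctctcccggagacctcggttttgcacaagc

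Snai1: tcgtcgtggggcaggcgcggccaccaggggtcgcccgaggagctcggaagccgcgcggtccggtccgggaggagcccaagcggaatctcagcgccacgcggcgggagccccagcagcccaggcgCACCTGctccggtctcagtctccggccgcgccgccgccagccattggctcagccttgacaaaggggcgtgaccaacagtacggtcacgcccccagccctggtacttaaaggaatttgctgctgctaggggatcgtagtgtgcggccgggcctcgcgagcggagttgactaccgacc

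Epcam: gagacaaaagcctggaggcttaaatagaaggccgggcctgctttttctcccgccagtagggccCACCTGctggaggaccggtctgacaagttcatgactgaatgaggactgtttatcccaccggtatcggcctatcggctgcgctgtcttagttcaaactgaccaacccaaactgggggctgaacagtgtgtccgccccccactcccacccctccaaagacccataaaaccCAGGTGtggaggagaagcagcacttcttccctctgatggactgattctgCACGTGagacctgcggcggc

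Cldn1: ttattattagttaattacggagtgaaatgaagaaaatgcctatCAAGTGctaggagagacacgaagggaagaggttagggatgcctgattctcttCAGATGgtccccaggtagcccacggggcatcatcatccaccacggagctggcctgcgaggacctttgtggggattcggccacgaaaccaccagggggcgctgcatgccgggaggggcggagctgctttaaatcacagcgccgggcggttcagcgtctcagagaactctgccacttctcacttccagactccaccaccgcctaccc

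The core CANNTG reads the same on both strands, and the Snail and Zeb type cores CAGGTG and CACCTG, which are reverse complements of each other, are 1 case of it. The Epcam window held 3 cores, whose first bases lay -187, -19 and 30 bases from the start site, of which 2 were CAGGTG or CACCTG. The Snai1 window held 1 core, a CACCTG at -126 bases, and the Cldn1 window held 2, a CAAGTG and a CAGATG. The Twist2 and Twist1 windows held 0, as did every window of Zeb2. Of all 32851 promoter windows, 72.3% held at least 1 CANNTG and 20.2% at least 1 CAGGTG or CACCTG, while 2.88% held 2 or more CAGGTG or CACCTG, as the Epcam window did. These letters describe the windows and do not show binding.

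All values are log2 intensities after the authors' normalization. Differences are given as p62 KO minus WT hosts. The lower quartile of the arrays lay between 4.85 and 5.36 and the median between 6.21 and 6.44. The arrays of KO hosts 2 and 3 and WT hosts 2 and 5 had the narrowest interquartile ranges, 2.15 to 2.59, against 2.70 to 2.95 for the other 8. On these 4 arrays the lower quartile was higher and the upper quartile lower than on the other 8, so results that rest on these tumours are given with and without them.

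Twist2 was the gene of the 10 whose levels did not overlap between hosts. Its lowest, median and highest levels were 6.87, 7.25 and 7.36 in tumours of p62 KO hosts, against 6.58, 6.72 and 6.84 in tumours of WT hosts. All 6 KO tumours therefore lay above all 6 WT tumours, with a gap of 0.03 between KO host 4 and WT host 2. The means were 7.17 ± 0.20 in KO hosts and 6.71 ± 0.11 in WT hosts (SD, n = 6 each), a difference of 0.46 (SE 0.10), or 1.38-fold. Of all 28192 probe sets tested, 20 or 0.0709% had every KO tumour above every WT tumour. Nothing is read from 1 of 10 genes doing so, because Twist2 was put forward for this difference.

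Leaving out tumours could not turn the Twist2 difference, because every KO tumour lay above every WT tumour. Its size was nearly the same whichever tumours were used. It was 0.41 without KO hosts 2 and 3, 0.46 without these and WT hosts 2 and 5, and between 0.42 and 0.52 over the 12 single omissions. It was 0.43 with a common median per array and 0.47 after quantile normalization.

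Twist1, the closest relative of Twist2 and likewise a repressor of Cdh1, had practically equal means. Its lowest, median and highest levels were 7.70, 8.07 and 8.38 in KO hosts, against 7.81, 7.92 and 8.37 in WT hosts. The means were 8.03 ± 0.23 in each genotype and differed by 0.0012 (SE 0.13). KO host 2 and WT host 5 were the highest tumours of their groups, both with narrow arrays.

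Snai1, which encodes Snail, ran from 7.54 over a median of 7.89 to 8.42 in KO hosts, against 7.60, 7.82 and 8.08 in WT hosts. The difference was 0.14 (SE 0.15). KO hosts 2 and 3, at 8.37 and 8.42, were the highest of the 12 tumours, and without them the difference turned to -0.074.

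Snai2, which encodes Slug, ran from 8.47 over 9.18 to 9.53 in KO hosts, against 8.92, 9.30 and 9.52 in WT hosts. The difference was -0.16 (SE 0.16), and -0.032 without KO host 3, the lowest tumour. The groups overlapped between 8.92 and 9.52, and KO host 3 lay below every WT tumour.

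Zeb1 had levels of 10.19, 10.67 and 10.87 (lowest, median, highest) in KO hosts, against 10.53, 10.75 and 10.90 in WT hosts. Its difference was -0.17 (SE 0.14). KO hosts 2 and 3 both stood at 10.19, below the other 10 tumours, and without them the difference turned to 0.024.

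Zeb2 had levels of 8.16, 8.97 and 9.23 in KO hosts, against 8.74, 8.90 and 9.19 in WT hosts. The difference of -0.14 (SE 0.18) turned to 0.15 without KO hosts 2 and 3, which were again the lowest tumours at 8.30 and 8.16. Zeb1 and Zeb2 were thus lower in the mean of KO hosts through the same pair of tumours.

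The mean of the other 5 regulators in a tumour was 8.90 ± 0.13 in KO hosts and 8.96 ± 0.08 in WT hosts. The difference in this mean was -0.066, where that of Twist2 was 0.46. Twist2 relative to it was -1.72 ± 0.25 in KO hosts and -2.25 ± 0.18 in WT hosts, with ranges of -2.05 to -1.44 in KO hosts and -2.42 to -2.03 in WT hosts that overlapped. As with Twist2 alone, this is a description.

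**Figure D1:**
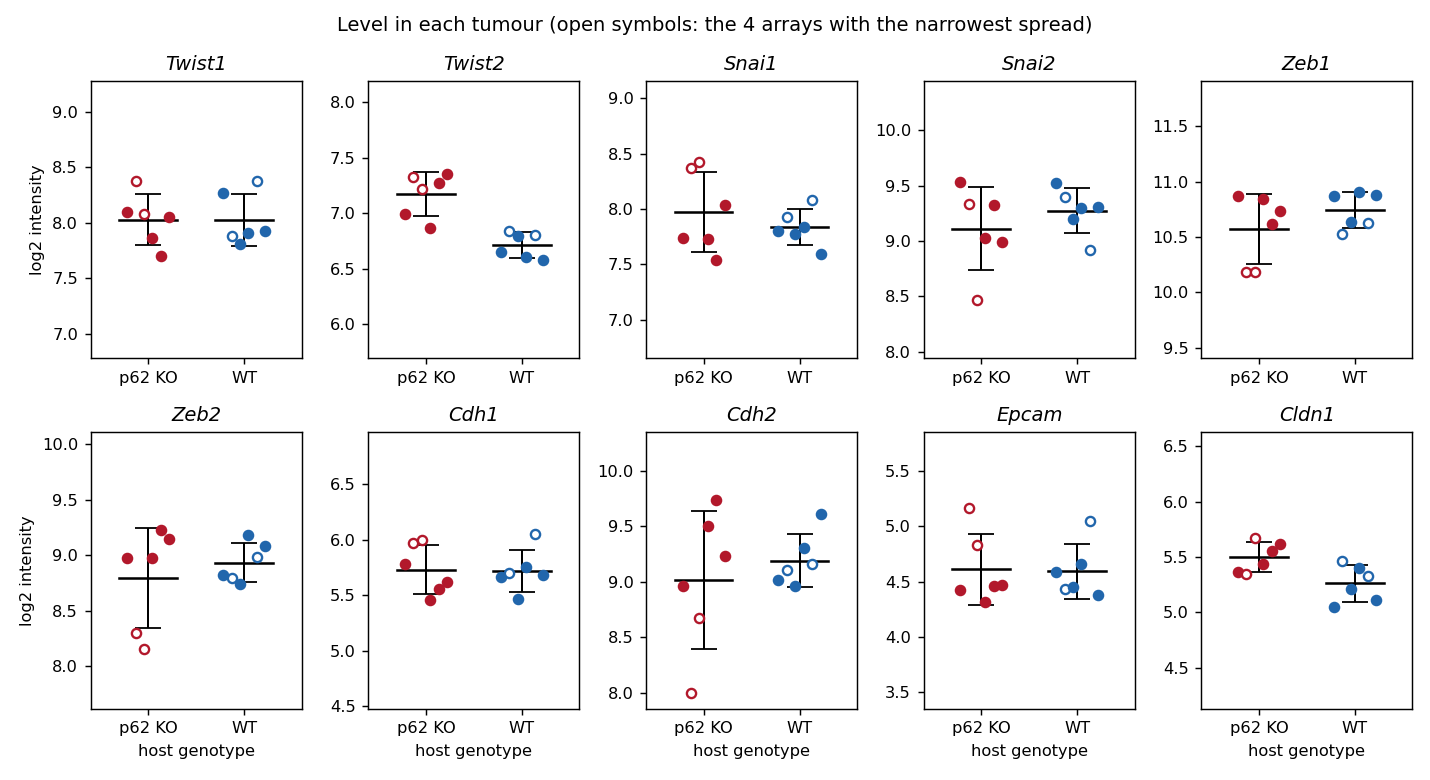
Level of each of the 10 genes as log2 intensity in tumours of p62 KO hosts (red, left) and WT hosts (blue, right), with 1 point per tumour, the mean as a line and the SD as bars, and open symbols for the 4 arrays of narrowest spread. The panels span the same number of log2 units, and Twist2 is the gene whose KO points, 6.87 to 7.36, all lie above its WT points, 6.58 to 6.84.

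Neither cadherin of the E-cadherin and N-cadherin pair was called between hosts, and their differences were smaller than their errors. Cdh1 stood at 5.45, 5.70 and 6.00 in KO hosts, against 5.47, 5.69 and 6.06 in WT hosts, a difference of 0.011 (SE 0.12). Both groups covered the same range.

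Cdh2 stood at 7.99, 9.10 and 9.73 in KO hosts, against 8.96, 9.13 and 9.61 in WT hosts. Its difference of -0.18 (SE 0.24) turned to 0.17 without KO hosts 2 and 3. KO tumours spread most widely in this gene, with an SD of 0.63 against 0.24 in WT hosts.

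Epcam lay below the lower quartile of its own array in all 12 tumours, so that its variation is that of a signal at the low end of the scale. Levels were 4.32, 4.47 and 5.16 in KO hosts, against 4.38, 4.52 and 5.05 in WT hosts, a difference of 0.019 (SE 0.16). The difference was -0.17 without KO hosts 2 and 3.

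Cldn1 was the adhesion gene with the largest difference relative to its error. Levels were 5.35, 5.50 and 5.67 in KO hosts, against 5.05, 5.27 and 5.46 in WT hosts. The difference of 0.24 (SE 0.10), or 1.18-fold, stayed between 0.20 and 0.28 over single omissions and was 0.23 without KO hosts 2 and 3. The groups overlapped, since WT host 2 lay above KO hosts 1, 2 and 4, and WT host 4 above KO hosts 1 and 2.

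Across the whole table, limma called 1 of 28192 probe sets at an adjusted p under 0.05, or 0.00355%, and 0 of the 10 genes (adjusted p = 0.9935 to 0.9996). At an unadjusted p under 0.05 there were 675 probe sets, or 2.39%, and 2 of the 10 genes, Twist2 and Cldn1. Twist2 counts among these because it was put forward for its value, so that nothing is read from this share. In no alternative fit was any of the 10 genes called, the smallest adjusted p being 0.383, for Twist2.

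**Figure D2:**
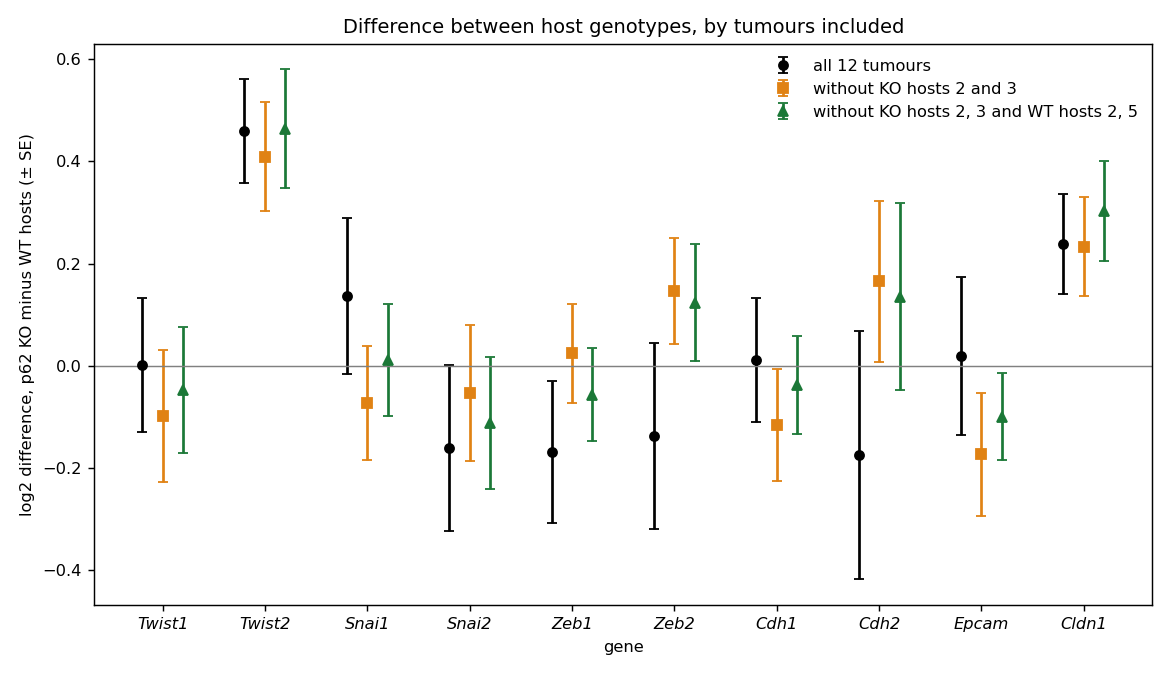
Difference in log2 intensity, p62 KO minus WT hosts, with its SE for each gene over all 12 tumours (black circles), without KO hosts 2 and 3 (orange squares) and without these and WT hosts 2 and 5 (green triangles). Twist2 has a difference of 0.41 to 0.46 in the 3 sets of tumours. No omission could turn its sign, since its KO and WT levels do not overlap. Every other gene except Snai2 and Cldn1 turns sign when KO hosts 2 and 3 are left out.

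Whether Twist2 rose and fell with the other regulators, or against their targets, was asked across tumours. Over all pairs of the 10 genes 45 correlations were computed, with permutation tests adjusted by Benjamini-Hochberg over the 45. No relation of Twist2 to Twist1, its nearest relative, passed. The Pearson r of Twist2 with Twist1 was 0.10 (permutation p = 0.745, adjusted p = 0.804, n = 12), with a Spearman rho of 0.12 (p = 0.715, adjusted p = 0.901), and the r turned to -0.20 in the 8 tumours with wider arrays (exact p = 0.627). Of all other probe sets, 84.2% had an r with Twist2 at least as far from 0.

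Zeb1 was the regulator that ran most strongly against Twist2. The r was -0.63 (permutation p = 0.0257, adjusted p = 0.0718, n = 12) and the rho -0.62 (p = 0.0346, adjusted p = 0.180), and neither passed after adjustment. The r was -0.67 with the host means subtracted, -0.69 with the array spread regressed out, -0.64 in the 8 tumours with wider arrays (exact p = 0.0916), and -0.66 without KO hosts 2 and 6, the tumours farthest from the Twist2 median. Without KO host 6 it was -0.76 and passed after adjustment. It was weaker at -0.39 with a common median per array and at -0.40 without KO hosts 2 and 3. Within WT hosts alone the r was -0.98 (exact permutation p = 0.0167, n = 6), and within p62 KO hosts -0.58 (exact permutation p = 0.190, n = 6). After adjustment over the 18 correlations within hosts these were p = 0.30 and 0.658. In WT hosts the 3 tumours lowest in Twist2 (6.58 to 6.65) were the 3 highest in Zeb1 (10.87 to 10.90). Over all probe sets 3.05% had an r with Twist2 at least as far from 0 as that of Zeb1.

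Cldn1 ran with Twist2. The r was 0.72 (permutation p = 0.00845, adjusted p = 0.0346, n = 12) and the rho 0.68 (p = 0.0186, adjusted p = 0.169), so that the Pearson value passed and the rank value did not. It was 0.83 in the 8 tumours with wider arrays (exact p = 0.0135, adjusted p = 0.606) and 0.79 without KO hosts 2 and 6 (adjusted p = 0.0876). It was 0.42 with the host means subtracted (adjusted p = 0.285) and 0.27 after quantile normalization (adjusted p = 0.556). Over single omissions the r lay between 0.66 and 0.83, and it no longer passed without KO host 3, 5 or 6 or without WT host 1, 5 or 6. Both genes were higher in the mean of KO hosts, which enters the pooled value. Of all probe sets, 0.873% had an r with Twist2 as far from 0 over the 12 tumours, and 25.8% did with host means subtracted.

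The other 6 genes had no relation to Twist2 that passed over all 12 tumours. Snai1 had an r of 0.48 (permutation adjusted p = 0.207), which was 0.077 without KO hosts 2 and 3 and 0.74, past the threshold, without KO host 5. Snai2 (-0.34), Zeb2 (-0.33), Cdh2 (-0.37), Epcam (0.27) and Cdh1 (0.18) had permutation adjusted p of 0.368 to 0.669. Of these, Zeb2, Cdh2, Epcam and Cdh1 turned sign in the 8 tumours with wider arrays, to 0.39, 0.16, -0.25 and -0.22. A fall of E-cadherin RNA with rising Twist2 was not detectable in these 12 tumours. The Cdh1 signal was low, at a mean percentile of 38.7 within its array, and followed the array spread (r = -0.86). These values therefore do not show that E-cadherin RNA is unrelated to Twist2.

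**Figure D3:**
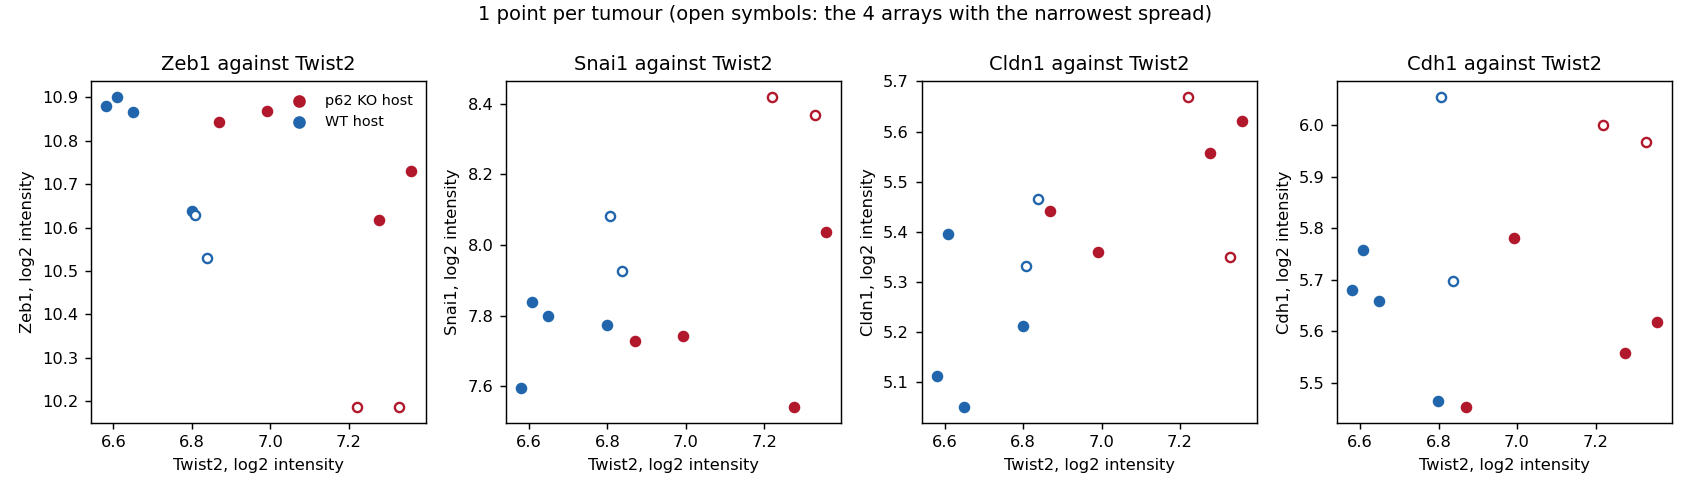
Zeb1, Snai1, Cldn1 and Cdh1 (vertical) against Twist2 (horizontal), all as log2 intensity, with 1 point per tumour, red for p62 KO hosts, blue for WT hosts and open symbols for the 4 arrays of narrowest spread. In each colour Zeb1 is lower where Twist2 is higher (r = -0.58 in KO hosts and -0.98 in WT hosts), without passing after adjustment. Over both colours together Cldn1 is higher where Twist2 is higher, and Cdh1 shows no trend.

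Among the remaining genes, the regulators and targets formed sets that varied together over the 12 tumours. In all, 13 of the 45 pairs passed (permutation adjusted p under 0.05), 9 with a positive and 4 with a negative r, and 12 of the 13 did not involve Twist2. Cdh1 and Epcam had an r of 0.85 (permutation adjusted p = 0.0153), Zeb2 and Cdh2 0.84 (permutation adjusted p = 0.0153), and Zeb1 and Zeb2 0.83 (permutation adjusted p = 0.0262). Snai1 ran against Zeb1 (-0.80), Zeb2 (-0.79) and Cdh2 (-0.80), and with Epcam (0.78) and Cdh1 (0.74). Twist1 likewise ran with Epcam (0.77) and Cdh1 (0.74). Over all 12 tumours both repressors of Cdh1 were thus high where Cdh1 was high. With the array spread regressed out, the r with Cdh1 was 0.079 for Snai1 and 0.54 for Twist1. In the 8 tumours with wider arrays it was 0.12 and 0.52, and none of these passed after adjustment. By rank, 1 pair of the 45 passed, Zeb2 with Cdh2 (rho = 0.85, permutation adjusted p = 0.0378).

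Part of these joint patterns rested on KO hosts 2 and 3. Without them 0 of 45 pairs passed after adjustment and 5 did at an unadjusted permutation p under 0.05, and in the 8 tumours with wider arrays 0 passed, with 1 at an unadjusted exact p under 0.05. Without KO hosts 2 and 3 the r was 0.27 for Zeb1 with Zeb2, -0.30 for Snai1 with Zeb1 and -0.21 for Snai1 with Zeb2. It remained 0.73 for Twist1 with Cdh1, 0.69 for Twist1 with Epcam, 0.82 for Cdh1 with Epcam and 0.71 for Zeb2 with Cdh2, none past adjustment (permutation adjusted p = 0.225 each, n = 10). In the 8 tumours with wider arrays Zeb1 with Zeb2 was at 0.013, Snai1 with Zeb1 at 0.11, Zeb2 with Cdh2 at 0.70 and Cdh1 with Epcam at 0.51. After quantile normalization 1 pair passed.

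The same genes followed the spread of the arrays, tested as 10 correlations. With the interquartile range of the array, Cdh1 had an r of -0.86 (permutation adjusted p = 0.0033), Snai1 -0.84 (permutation adjusted p = 0.0071), Zeb2 and Zeb1 0.82 each (permutation adjusted p = 0.0071), Epcam -0.80 (permutation adjusted p = 0.0090) and Cdh2 0.72 (permutation adjusted p = 0.0125). By rank, 1 of the 10 passed, Cdh1 (rho = -0.85, permutation adjusted p = 0.0082). Without the 2 tumours farthest in spread, the r stayed at -0.82 for Cdh1 and dropped to -0.46 for Snai1, 0.34 for Zeb1 and 0.29 for Zeb2. Over all 12 tumours Twist1 had an r of -0.61 (permutation adjusted p = 0.0515), Snai2 of 0.40, Twist2 of -0.32 and Cldn1 of -0.22. In the 8 tumours with wider arrays Twist2 was at 0.40 and Cldn1 at 0.52. There Zeb2 was at 0.12, Snai1 at 0.22, Cdh2 at 0.27, Epcam at -0.48, Twist1 at -0.60 and Cdh1 at -0.69. Zeb1 turned to -0.51, and Snai2 had an r of -0.94 (exact permutation p = 0.0010, not adjusted). Without the 2 tumours farthest in spread Twist2 was at 0.29 and Snai2 at -0.10. The median absolute r of all probe sets with the spread was 0.71, so that the values of Cdh1 or Zeb1 are not particular to these genes. With the spread regressed out, 0 of the 45 pairs passed, and 5 did at an unadjusted permutation p under 0.05.

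**Figure D4:**
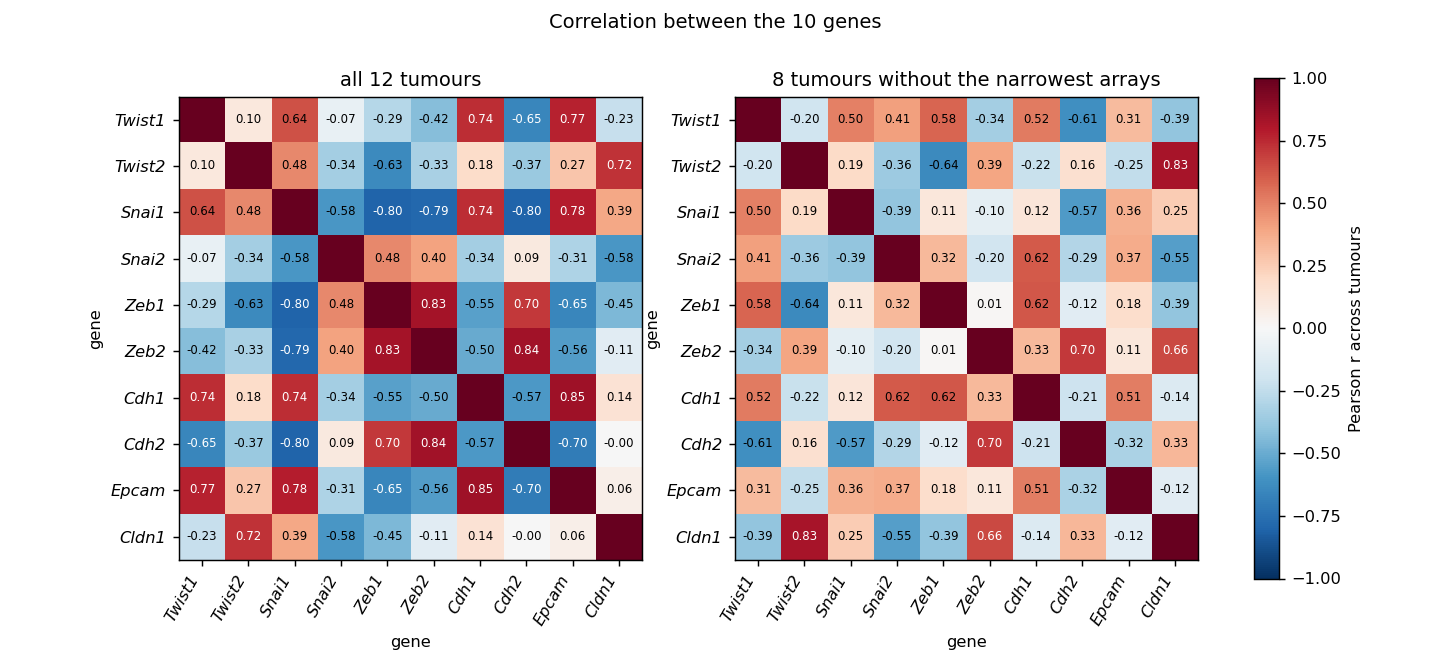
Pearson r between each pair of the 10 genes over all 12 tumours (left) and over the 8 tumours with wider arrays (right), from -1 (blue) to 1 (red). The blocks of Snai1, Zeb1, Zeb2, Cdh1, Cdh2 and Epcam on the left mostly fade on the right. There Zeb1 and Zeb2 have an r of 0.01, and Zeb2 and Cdh2 of 0.70. Twist2 has an r of -0.63 (left) and -0.64 (right) with Zeb1, and of 0.72 and 0.83 with Cldn1. On the right 0 of 45 pairs passed after adjustment.

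**Figure D5:**
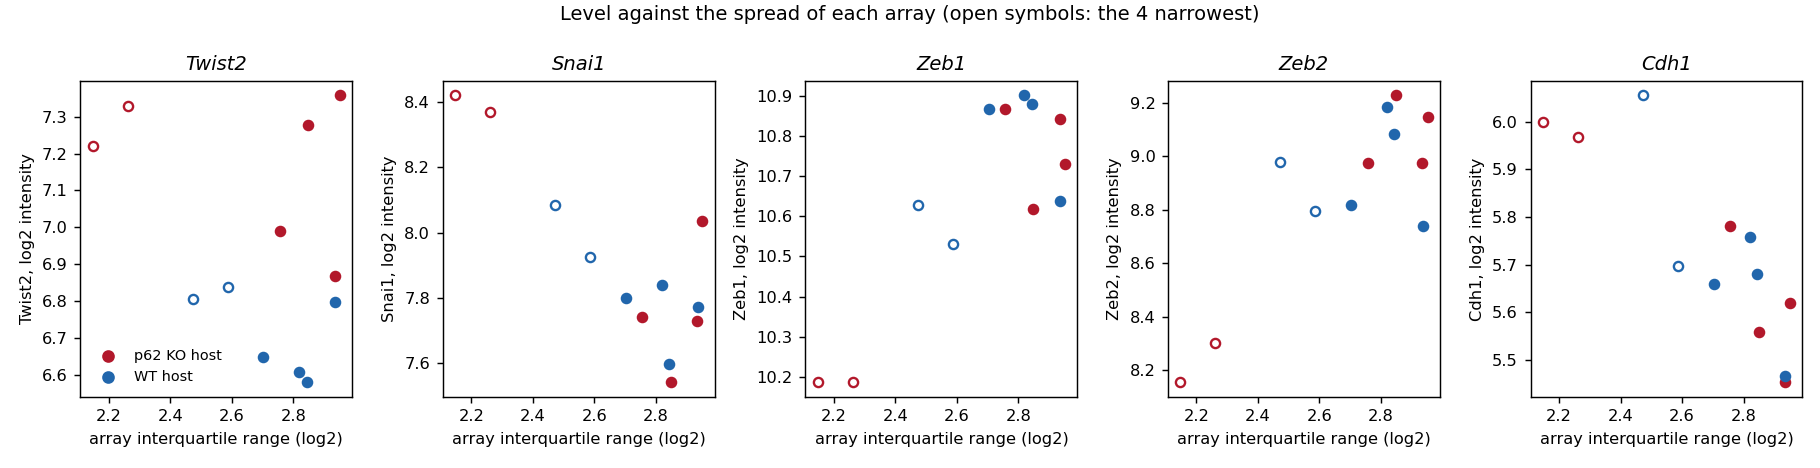
Level of Twist2, Snai1, Zeb1, Zeb2 and Cdh1 as log2 intensity (vertical) against the interquartile range of the array in log2 units (horizontal), 1 point per tumour, red for p62 KO hosts and blue for WT hosts. Snai1 and Cdh1 fall and Zeb1 and Zeb2 rise with the spread, with KO hosts 2 and 3 at the left, while Twist2 has an r of -0.32 over the 12 tumours.

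Markers of other cell types were set beside these genes as the mean log2 level of each list per tumour. The 11 fibroblast markers lay between 8.36 and 9.04 in KO hosts, against 8.54 to 8.90 in WT hosts, with a summed level (log2 of the summed intensities) of 12.6 to 13.4 in KO hosts and 12.8 to 13.4 in WT hosts, and their r with Twist2 was -0.30 (permutation p = 0.345, adjusted p = 0.597 over 12 lists). Of the 11, 3 were higher in the mean of KO hosts. The 8 macrophage markers lay between 9.13 and 9.86 in KO hosts, against 9.11 to 9.73 in WT hosts (r = 0.11, permutation adjusted p = 0.944). Their r with Twist2 was 0.73 in the 8 tumours with wider arrays (exact p = 0.0428, not adjusted) and 0.45 without the 2 tumours farthest from the median of the list. For the 6 endothelial markers the r was -0.029 over the 12 tumours and 0.63 in the 8 (exact permutation p = 0.105, not adjusted). The part of macrophages or endothelial cells in the Twist2 levels was not tested.

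The mean of the 4 adipocyte markers correlated with Twist2 over the 12 tumours, unequally among its members. The host difference for which Twist2 was put forward enters this pooled correlation. The markers lay between 6.23 and 6.75 in KO hosts, against 5.71 to 6.31 in WT hosts, with a summed level of 9.59 to 10.5 in KO hosts and 8.35 to 10.1 in WT hosts, and all 4 were higher in the mean of KO hosts. The r with Twist2 was 0.78 (permutation p = 0.00051, adjusted p = 0.0061, n = 12) and the rho 0.86 (p = 0.00067, adjusted p = 0.0080). It was 0.81 without the 2 tumours farthest from the median of the list, 0.70 in the 8 tumours with wider arrays (exact p = 0.0383) and 0.62 with host means subtracted, where it did not pass (adjusted p = 0.369). By gene, the r over 12 tumours was 0.85 for Lep, 0.57 for Plin1, 0.55 for Fabp4 and 0.24 for Adipoq. Like Twist2, Lep did not overlap between hosts, with 4.75 to 5.21 in KO hosts and 4.38 to 4.72 in WT hosts. This host difference enters the pooled r of Lep, and no r with host means subtracted was computed by gene. Lep, which encodes leptin, and Adipoq, which encodes adiponectin, lay below the lower quartile of their arrays in 11 of 12 tumours each, whereas the fatty acid binding protein gene Fabp4 averaged 9.84 in KO hosts and 9.27 in WT hosts. The 4 neutrophil markers lay between 5.49 and 6.30 in KO hosts, against 5.35 to 5.75 in WT hosts, with an r of 0.64 (permutation adjusted p = 0.168), which was 0.19 with host means subtracted and 0.41 in the 8 tumours with wider arrays. The part of these cells in the Twist2 levels was not tested.

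The 11 measured genes of prostate gland secretion, a sign of host epithelium, lay between 3.99 and 4.55 in KO hosts, against 4.03 to 4.49 in WT hosts. Of these genes, 6 lay below the lower quartile of their array in 12 of 12 tumours, among them probasin (Pbsn), and 3 in 11 of 12. Sbp reached 6.05 in 1 tumour of a WT host, with 3.66 the highest in KO hosts, and Spink1 reached 5.82 in WT hosts, with 4.20 the highest in KO hosts. Tmprss2 and Hoxb13 lay below the lower quartile in 0 tumours. The carcinoma line was checked by keratins of luminal epithelium. Krt8 averaged 8.12 in KO hosts and 8.10 in WT hosts, and Krt18 6.03 in KO hosts and 5.84 in WT hosts. The part of gland epithelium in the Cdh1 and Epcam levels was not tested.

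Around the 10 genes, 9 lists of the same pathway were examined, chosen with earlier results of these data known. Of 171 listed genes 164 were measured, and 0 of them were called, with 1 higher and 2 lower at an unadjusted p under 0.05, or 1.83% against 2.34% of all 19937 genes. Their median difference was 0.025, against 0.019 for all genes. These shifts depended on the tumours with narrow arrays. Without KO hosts 2 and 3 several of the medians given below turned. They became -0.071 for the epithelial list, -0.082 for the other cadherins and -0.020 for the other claudins. They became -0.0019 for the partners and inhibitors of Twist, 0.046 for the mesenchymal effectors and 0.059 for the cofactors of Snail and Zeb. With the same omission the median difference of all 28192 probe sets turned as well, from 0.024 to -0.016. Quantile normalization turned the mesenchymal median (0.037), and a common median per array that of the upstream signals (-0.028), so that no direction is read for these lists.

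Of the 32 epithelial junction and keratin genes 24 were higher and 8 lower in the mean of KO hosts (median 0.053). The largest of these differences, and also that of the 14 other cadherins (median 0.063), was that of Cdh3, which encodes the P-cadherin of basal epithelium. Cdh3 averaged 6.42 ± 0.27 in KO hosts and 6.98 ± 0.39 in WT hosts, a difference of -0.56 (SE 0.18), without being called (limma adjusted p = 0.9935). The groups overlapped between 6.44 and 6.72. Krt18 differed by 0.20 and Krt7 by 0.44, Cdh11 of mesenchymal cells by -0.36 and Pcdh18 by -0.28.

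Among 21 mesenchymal effector genes 10 were higher and 11 lower (median -0.026). The integrin subunit Itgb3 averaged 7.53 ± 0.16 in KO hosts and 7.19 ± 0.12 in WT hosts, a difference of 0.34 (SE 0.10), and the hyaluronan receptor Cd44 differed by -0.23. Of 11 catenins and adhesion partners 4 were higher and 7 lower (median -0.054), with Ctnna1, which links cadherins to actin, at -0.27, Ctnnd1 at -0.24 and Nectin3 at -0.23. Of 12 other claudins 9 were higher (median 0.078), with Cldn18 at 0.20, Cldn11 at 0.17 and Cldn10 at 0.11.

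The 13 dimer partners, relatives and Id inhibitors of Twist had a median of 0.062, with 9 higher. Scx, a helix-loop-helix factor of tendon, differed by 0.24, Hand1 by 0.18 and Msc by 0.18. Of the 17 measured cofactors of Snail and Zeb 11 were lower (median -0.068), with the TGF-beta mediator Smad2 at -0.35, the deacetylase Hdac2 at -0.22 and the methyltransferase Ezh2 at -0.21. Of 22 other regulators of transition 16 were higher (median 0.044), with Tbx3 at 0.38, Gsc at 0.19 and Foxc2 at 0.16. Among 28 upstream signals 15 were higher (median 0.0065), with the non-canonical ligand Wnt5a at -0.39 (5.88 ± 0.25 in KO hosts and 6.27 ± 0.27 in WT hosts), Fgf7 at -0.30 and Lif at 0.25. None of these genes was called (limma adjusted p = 0.9935 each).

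The genes most like Twist2 were sought among all 19937 by the r over the 12 tumours with host means subtracted. They were 4933414I15Rik (0.88), Pou5f1 (0.88), the heme oxygenase Hmox1 (0.86), the matrix protein gene Ccn2 (0.85) and Tmem120a (0.85). Over the 8 tumours with wider arrays Hmox1 had an r of 0.97 and Ccn2 of 0.85, whereas Pou5f1 dropped to 0.28. Hmox1 averaged 9.75 in KO hosts and 9.12 in WT hosts, and Ccn2 8.85 in KO hosts and 8.49 in WT hosts. The genes most like Cdh1 were Krt9 (0.97), Olfr652 (0.97), Tex48 (0.96), Il17b (0.96) and Olfr139 (0.96). Of these, Olfr652 and Olfr139 belong to the olfactory receptor family, and Krt9 is a keratin of palm and sole skin. These genes were picked as the highest of many and carry no test.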

How the data were processed

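RNA of 12 tumours, 6 from p62 KO hosts and 6 from WT hosts, was extracted with TRIzol, amplified and hybridised to 1 single-colour array each, per the labels' protocols. The authors deposited log2 intensities, 1 per probe set and array, normalized by RMA (robust multi-array average) per the submitters' processing notes, with no version given. No read depth exists for arrays; precision is limited by how many there are. The arrays still differed in spread after RMA, which moves high and low levels in opposite directions.

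Of 34760 rows, 6568 at the low end of the identifiers, which the annotation gives no symbol, were taken for controls and left out. The remaining 28192 were fitted with limma 3.58.1 under R 4.3.3, using host genotype as the sole term, eBayes, two-sided tests and a threshold of 0.05 after Benjamini-Hochberg adjustment over all of them. Of these, 21640 have 1 symbol, 1321 several and 5231 none in the annotation used. Correlations used 100000 permutations, two-sided, or all orders for 8 tumours or fewer, in Python 3.11.15. The fit and the permutation test were tested on simulated data.

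The genes named are the 10 members, Sqstm1, 3 genes per list with the smallest unadjusted p, and the 5 genes most like Twist2 and Cdh1. The members and lists were chosen with earlier results of these data known. The miR-200 genes, Fabp4, Lep, Adipoq, Plin1, Pbsn, Sbp, Spink1, Tmprss2, Hoxb13 and Krt8 were named outside that rule after values were seen. Coordinates of genes are not given because the build of the arrays is not given in the sources used here. Alternatives were other scalings, filters, weights, covariates and omitted tumours. Plots used matplotlib 3.10.9.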

Additional observations from a re-analysis of the deposited data

How the results depend on the processing

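The differences of Cldn1 and Snai2 kept their direction in every alternative run, as did that of Twist2, which no omission of tumours could turn. The other genes turned in some. Differences turned for Twist1 with a common median per array (-0.033), array weights (-0.11), the interquartile range as covariate (-0.038), without KO hosts 2 and 3 (-0.098) and without these and WT hosts 2 and 5 (-0.048). In the same order they turned for Cdh1 (-0.024, -0.087, -0.039, -0.12 and -0.038) and Epcam (-0.016, -0.12, -0.044, -0.17 and -0.10), which also turned after quantile normalization (-0.037 and -0.031). With array weights, without the pair of KO hosts and without all 4 tumours, Zeb2 was at 0.096, 0.15 and 0.12, and Cdh2 at 0.13, 0.17 and 0.14. Snai1 turned to -0.028 with array weights and -0.074 without KO hosts 2 and 3, where Zeb1 turned to 0.024. Leaving out each tumour in turn gave -0.069 to 0.071 for Twist1, -0.043 to 0.078 for Cdh1, -0.091 to 0.11 for Epcam and -0.32 to 0.029 for Cdh2. The cause was not tested.

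Correlations with Twist2 turned for Twist1 with a common median (-0.13), with the spread regressed out (-0.12), without KO hosts 2 and 3 (-0.21), without all 4 tumours (-0.20) and without KO hosts 2 and 6 (-0.23, chosen after seeing the data). For Cdh1 the first 4 of these gave -0.15, -0.19, -0.22 and -0.22, and quantile normalization -0.060. Without KO hosts 2 and 3, and without all 4 tumours, Zeb2 was at 0.38 and 0.39, Cdh2 at 0.18 and 0.16, and Epcam at -0.19 and -0.25. Leaving out each tumour in turn gave -0.14 to 0.34 for Twist1. The count of Twist2 correlations that passed, 1 over all tumours, was 0 under a common median, quantile normalization, subtracted host means, regressed spread and each omission of 2 or 4 tumours, and lay between 0 and 1 over single omissions, as did the count of probe sets called, which was 0 over all rows, without dim probe sets and without KO hosts 2 and 3. Pairs that passed numbered 13, against 7 with a common median, 1 after quantile normalization, 2 without KO hosts 2 and 6, and 0 with the spread regressed out, without KO hosts 2 and 3 or without all 4 tumours. Over single omissions they numbered 3 to 14, with 3 without KO host 2 and 6 without KO host 3. With the mouse number as a replicate block, 0 probe sets were called, and the numbers do not pair the tumours, whose same-numbered deviations correlated between -0.55 and 0.37. The block leaves each gene's difference as it is (Twist2 0.46). Averaging probe sets per gene left the 10 genes as they were, each having 1. At an unadjusted p under 0.05, 362 probe sets were higher and 313 lower, against 983 and 1193 without KO hosts 2 and 3, 723 and 713 without all 4 tumours, 978 and 861 with array weights, 935 and 996 with the interquartile range as covariate, 455 and 566 over all rows, and 157 and 216 without dim probe sets. Leaving out dim probe sets also removed Cdh1, Epcam and Cldn1. Levels near the lower quartile, as of Epcam, limit what can be read.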

Other observations

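Precursor probe sets of the miR-200 family and of miR-205, microRNAs known to repress Zeb1 and Zeb2, were looked up after the members' values had been seen. Mir200c averaged 5.78 ± 0.44 in tumours of p62 KO hosts and 5.53 ± 0.19 in tumours of WT hosts (SD, n = 6 each), a difference of 0.25 (SE 0.18). Mir200a differed by 0.067 (SE 0.094), Mir200b by 0.11 (SE 0.11), Mir141 by 0.078 (SE 0.10) and Mir205 by -0.046 (SE 0.11). None was called (limma adjusted p = 0.9935 each). Mir200b, Mir141 and Mir205 lay between 3.29 and 4.43 over the tumours, below the lower quartiles of the arrays, and an array of this kind measures the gene's transcript, not the mature microRNA.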
